A study of Drosophila melanogaster with 16 samples.

Results

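The genes described here are 39 genes of DNA replication and the cell cycle, of 9982 genes in the deposited table. They were taken by symbol from a list of 40 entries, in which Cdk1 is written in both of its spellings. All 39 were found, and all 39 passed the filter on low values, so that they stood among the 9950 genes tested. They were described in 3 classes. The S-phase class held 20 genes, of which 13 act in origin licensing (Orc1, Orc2, Orc5, Orc6, Cdc6, dup, geminin, Mcm2, Mcm3, dpa, Mcm5, Mcm6 and Mcm7), 5 at the replication fork (CDC45L, PCNA, RfC3, RfC4 and Gnf1) and 2 in deoxynucleotide supply (RnrL and RnrS). The G1/S control class held 5 genes (CycE, Cdk2, CycD, dap and E2f1) and the mitotic class 14 (CycA, CycB, CycB3, Cdk1, stg, polo, aurA, aurB, fzy, BubR1, pav, Top2, glu and barr).

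RNA was sequenced from whole larvae of Drosophila melanogaster in 16 libraries of 20 larvae each, 4 libraries in each of 4 groups. In the grn groups the ubiquitous driver Tub-GAL4 expressed a hairpin RNA (RNAi) against grain (grn), a GATA factor, and in the control groups it drove the TRiP control transgene from another fly stock, so that a difference between stocks cannot be told apart from an effect of the RNAi. All larvae grew on a low sugar diet (LSD, 10% yeast), and at 48 h after egg laying, early in the second instar, they were moved for 8 h to LSD or to a high sugar diet (HSD, 10% yeast with 15% sugar). Groups follow the sample titles, since the genotype field names wild type for every LSD sample and an erk7 mutant for every HSD sample, and the stage field gives a later instar. The samples are pools of whole animals, in which more cells of a type and more RNA per cell cannot be told apart, and nothing in the labels says whether the 4 libraries of a group came from separate crosses, so the tests measure the spread between these libraries.

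Each library held 24038848 to 32644817 recovered reads. The targeted gene was at 14.6 to 23.4 normalized CPM (read counts scaled by the authors to a common library size) in the 8 control libraries and at 207 to 259 in the 8 libraries labelled grn RNAi, higher and not lower, so that every grn result below is that of the libraries so labelled. Whether transcripts of the hairpin transgene are counted as grn was not tested. The authors' scaling set the column sums at 1025511 to 1131938 in control libraries and at 929735 to 963521 in grn libraries. Without it, as plain CPM of the recovered reads, the median log2 change of all genes between grn and control moved up by 0.19 on LSD and by 0.14 on HSD, and under quantile normalization by 0.10 and 0.12. On LSD the share of genes called higher and lower then became 53.9% and 16.1% (plain CPM) or 41.2% and 19.2% (quantile), and on HSD 42.3% and 13.99%, or 39.4% and 14.5%.

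A cell licenses its replication origins in G1, when the origin recognition complex, Cdc6 and the Cdt1 homologue Dup load the Mcm helicase, and Cyclin E with Cdk2 then starts S phase. E2f1, with its partner Dp, activates transcription of many of the replication genes and of CycE itself. Most larval tissues of the fly grow by endocycles, which alternate S phase with a gap and have no mitosis, while imaginal discs, neuroblasts and a few other cells divide with the mitotic cyclins, Cdk1 and its activator String.

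On LSD, the S-phase and G1/S genes stood higher in grn larvae than in control larvae, and most mitotic genes did not. By limma, at a Benjamini-Hochberg adjusted p under 0.05 across the 9950 genes, 17 of the 20 S-phase genes and 5 of the 5 G1/S genes were higher and 0 were lower, against 2 of the 14 mitotic genes higher (Top2 and CycA) and 0 lower. Of all genes tested, 27.1% were higher and 27.1% lower. The median log2 fold change was 0.42 over the S-phase genes, 0.42 over the G1/S genes and 0.06 over the mitotic genes, beside 0.03 over all genes. Under plain CPM and quantile normalization 20 of 20 S-phase genes were called higher, with medians of 0.62 and 0.51, and 8 and 5 mitotic genes, with medians of 0.25 and 0.13. Under the same scalings the medians over all genes were 0.22 and 0.13, with 53.9% and 41.2% of all genes called higher. The mitotic medians were thus near those of all genes.

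On HSD the same comparison gave smaller differences in the S-phase genes. Called higher were 12 of the 20 S-phase genes, 3 of the 5 G1/S genes (CycE, Cdk2 and CycD) and 2 of the 14 mitotic genes (again Top2 and CycA), and 1 mitotic gene, aurB, was lower, where 17.9% of all genes were higher and 21.2% lower. The medians were 0.24 in the S-phase, 0.16 in the G1/S and 0.06 in the mitotic class, beside 0.01 over all genes. Plain CPM and quantile normalization called 42.3% and 39.4% of all genes higher, and 13.99% and 14.5% lower. They called 18 and 17 S-phase genes and 5 and 5 mitotic genes higher, and 0 of both classes lower. The call of aurB, an Aurora kinase of chromosome segregation (log2 fold change -0.21 ± 0.08 SE, adjusted p = 0.0392, limma), was thus lost under both scalings, with edgeR and with DESeq2, and also when any of 5 libraries was left out (control HSD replicates 1 and 4, grn HSD replicates 1, 2 and 3), with adjusted p of 0.0693 to 0.111.

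**Figure D1:**
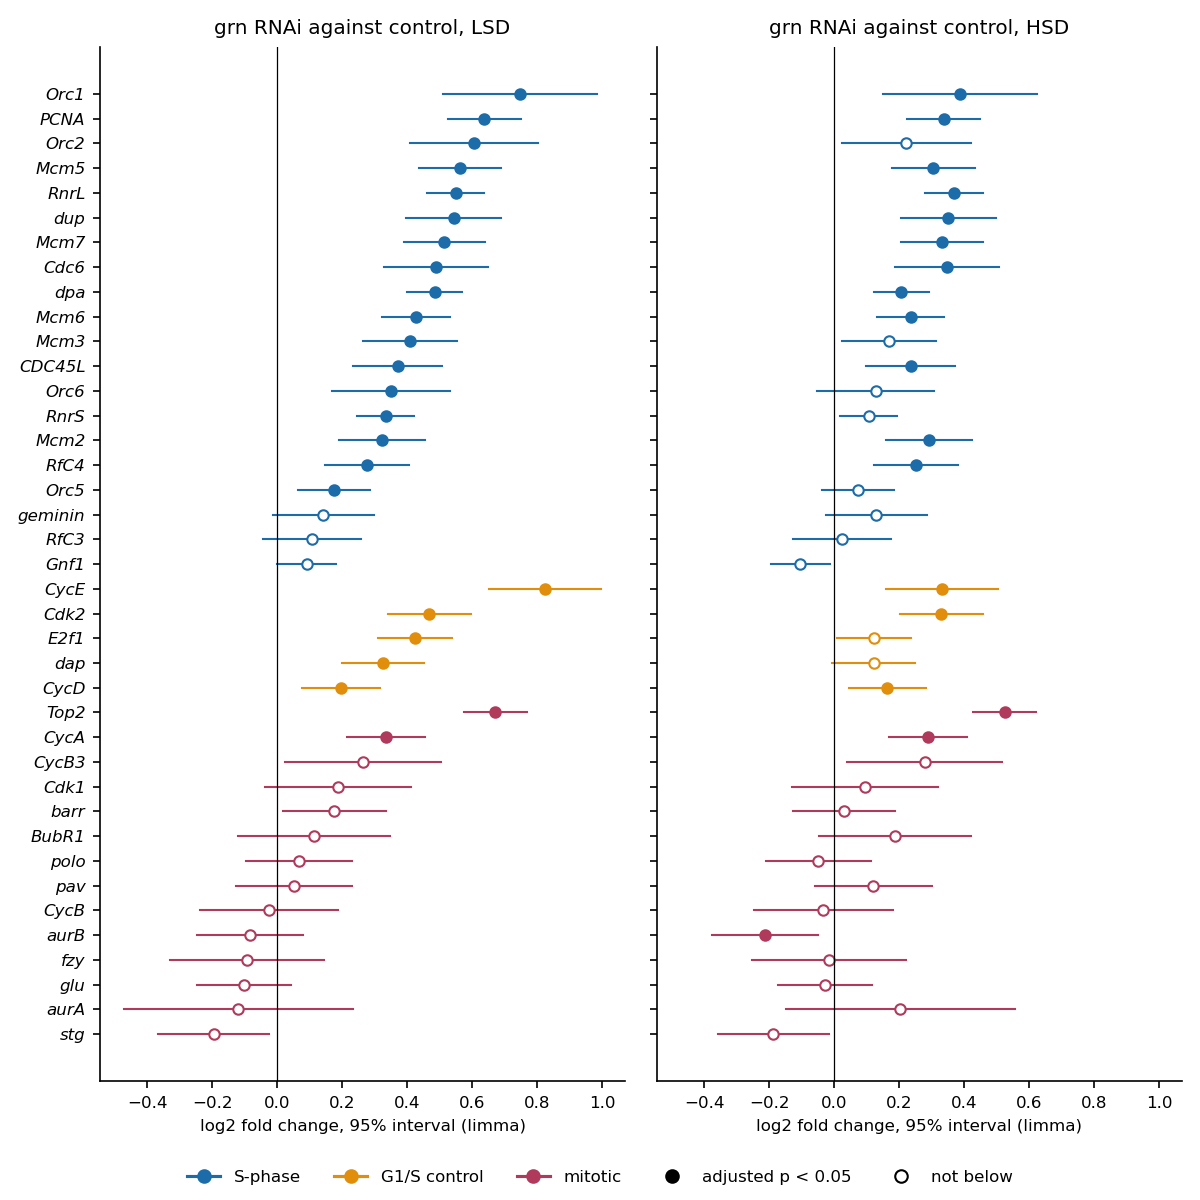
Log2 fold change of each of the 39 genes in grn RNAi against control larvae on LSD (left) and HSD (right), with the 95% interval from limma; colour gives the class, filled points passed an adjusted p of 0.05. On LSD 17 of 20 S-phase, 5 of 5 G1/S and 2 of 14 mitotic points are filled, all to the right of 0.

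Among the licensing genes, 12 of 13 were higher in grn larvae on LSD and 8 of 13 on HSD, beside 27.1% and 17.9% of all genes. With DESeq2 the call of Orc5 on LSD was lost (0.18, adjusted p = 0.0787). dpa, which encodes Mcm4 of the replicative helicase, was at 31.4, 32.6, 33.6 and 32.4 normalized CPM in the control libraries on LSD and at 46.1, 45.0, 47.3 and 44.2 in the grn libraries. On HSD the controls gave 32.2, 31.1, 30.9 and 33.7 and the grn libraries 36.2, 36.1, 37.9 and 37.7. The grn libraries were above every control library on both diets (0.48 ± 0.04 SE on the log2 scale; adjusted p = 1.92e-07, limma, on LSD and 0.21 ± 0.04, adjusted p = 0.000755, on HSD). The other Mcm genes gave 0.32 (Mcm2) to 0.56 (Mcm5) on LSD, all called, and 0.17 (Mcm3) to 0.33 (Mcm7) on HSD, where Mcm3 was the one not called (adjusted p = 0.0587, limma). It was called without control HSD replicate 1 (0.22, adjusted p = 0.0160) or grn HSD replicate 2 (0.21, adjusted p = 0.0288), with DESeq2 (adjusted p = 0.0334), as plain CPM (0.31) and with quantile normalization (0.25).

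Orc1, the largest subunit of the origin recognition complex, gave the largest log2 fold change of the S-phase class on both diets, 0.75 ± 0.11 SE on LSD and 0.39 ± 0.11 on HSD (adjusted p = 6.60e-05 and 0.0124, limma), from 6.88 to 9.15 normalized CPM in controls and 13.2 to 14.5 in grn larvae on LSD. Orc2 gave 0.61 on LSD and was called, and 0.22 on HSD, where it was called only as plain CPM (0.35) and with quantile normalization (0.31). Cdc6 and dup, the loaders of the helicase, were called on both diets (0.49 and 0.54 on LSD, 0.35 and 0.35 on HSD). geminin, which holds Dup back from licensing again within a cycle, was called on neither diet under the authors' scaling, with 0.14 (95% interval -0.01 to 0.30) on LSD and 0.13 (-0.03 to 0.28) on HSD. It was called as plain CPM (0.34 and 0.27) and with quantile normalization (0.22 and 0.23).

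At the fork, PCNA, the sliding clamp of the replicative polymerases, was at 57.2, 52.6, 50.3 and 47.4 normalized CPM in controls on LSD and at 84.1, 78.7, 82.9 and 77.6 in grn larvae. On HSD it was at 46.4, 44.2, 45.9 and 43.2 in controls and at 54.1, 58.1, 57.7 and 57.6 in grn larvae. The groups did not overlap on either diet, and the fold was 1.55 on LSD (log2 0.64 ± 0.05 SE, adjusted p = 2.32e-07, limma) and 1.26 on HSD (0.34 ± 0.05, adjusted p = 0.000159).

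RfC4, a subunit of the clamp loader that places PCNA on DNA, gave smaller folds. It was at 20.8, 19.9, 19.6 and 17.2 normalized CPM in controls and 25.1, 22.0, 24.5 and 22.6 in grn larvae on LSD, and at 16.6, 14.8, 15.6 and 15.4 in controls and 18.8, 18.3, 18.2 and 19.3 in grn larvae on HSD. The lowest grn library was above the highest control library on each diet (log2 fold changes 0.28 ± 0.06 SE and 0.25 ± 0.06, adjusted p = 0.00154 and 0.00416, limma). The other clamp loader genes, RfC3 (0.11 and 0.02) and Gnf1, the large subunit (0.09 and -0.10), were not called on LSD or HSD, and CDC45L, a partner of the Mcm helicase, was called on both (0.37 and 0.24). On LSD RfC3 and Gnf1 were called higher as plain CPM (0.30 and 0.29) and with quantile normalization (0.18 and 0.16). Gnf1 was called lower on HSD without control HSD replicate 4 (-0.14, adjusted p = 0.0216, limma).

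RnrL encodes the large subunit of ribonucleotide reductase, which makes deoxynucleotides, and lies on chromosome 2L, minus strand, from 10325026 to 10327943 (release 6 assembly, Ensembl annotation). It was at 47.8, 44.4, 48.6 and 45.3 normalized CPM in controls on LSD and at 67.9, 67.6, 69.5 and 68.1 in grn larvae, and on HSD at 42.4, 41.7, 38.9 and 40.4 in controls and 50.9, 52.3, 55.8 and 52.7 in grn larvae. Every grn library was above every control library of either diet (log2 fold change 0.55 ± 0.04 SE on LSD, adjusted p = 9.34e-08, and 0.37 ± 0.04 on HSD, adjusted p = 8.73e-06, limma). The small subunit gene RnrS gave 0.33 on LSD, which was called, and 0.11 on HSD, which was not (adjusted p = 0.0522, limma). On HSD it was called as plain CPM (0.25), with quantile normalization (0.30), with DESeq2 (adjusted p = 0.0114) and with the filter at 5 (adjusted p = 0.0488, limma).

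In the G1/S class, CycE (chromosome 2L, minus strand, from 15727581 to 15748150) gave the largest log2 fold change of all 39 genes on LSD. It was at 14.1, 13.4, 16.03 and 16.02 normalized CPM in controls and at 26.2, 27.4, 26.0 and 27.3 in grn larvae on LSD, and at 15.5, 14.9, 15.2 and 14.5 in controls and 17.0, 20.3, 22.4 and 17.2 in grn larvae on HSD. The grn libraries lay above the controls on each diet, but closer on HSD, where they were also more spread. The fold was 1.77 on LSD (log2 0.82 ± 0.08 SE, adjusted p = 1.18e-06, limma) and 1.26 on HSD (0.33 ± 0.08, adjusted p = 0.00440).

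Cdk2, the kinase bound by Cyclin E, was at 14.7, 12.9, 13.5 and 12.6 normalized CPM in controls and 19.1, 18.1, 19.5 and 18.3 in grn larvae on LSD. On HSD it was at 12.5, 10.9, 11.7 and 13.1 in controls and 14.7, 14.9, 15.4 and 15.9 in grn larvae. The groups did not overlap on either diet, and the log2 fold changes were 0.47 ± 0.06 SE and 0.33 ± 0.06 (adjusted p = 1.53e-05 and 0.000520, limma). The gene mir-995 lies within Cdk2 on the same strand, and how reads in the overlap were assigned is not given in the sources used here.

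E2f1 (chromosome 3R, minus strand, from 21620304 to 21660871, with mir-11 and mir-998 inside it on the same strand) was at 96.0, 96.8, 111 and 111 normalized CPM in controls and 138, 143, 141 and 133 in grn larvae on LSD. On HSD it was at 105.3, 107, 110.2 and 113 in controls and 116, 118, 127 and 114 in grn larvae. The groups stood well apart on LSD (log2 fold change 0.42 ± 0.05 SE, adjusted p = 1.42e-05, limma) and only just apart on HSD, where the call was not made (0.12 ± 0.05, adjusted p = 0.0818), though it was made under plain CPM (0.27), with quantile normalization (0.33) and with DESeq2 (0.13, adjusted p = 0.0464).

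dap encodes Dacapo, the inhibitor of Cyclin E and Cdk2, and it stood higher with the genes it opposes. It was at 9.38, 11.3, 10.3 and 9.68 normalized CPM in controls and 13.4, 13.3, 12.96 and 11.7 in grn larvae on LSD, and at 10.3, 10.2, 10.8 and 10.4 in controls and 10.9, 11.4, 11.5 and 11.9 in grn larvae on HSD. The groups did not overlap on either diet, yet under the authors' scaling the difference was called on LSD (log2 0.33 ± 0.06 SE, adjusted p = 0.000373, limma) and not on HSD (0.12 ± 0.06, adjusted p = 0.120). As plain CPM and with quantile normalization it was called on HSD too (0.26 and 0.20).

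CycD, a cyclin of Cdk4 tied to growth, had the smallest called difference of the G1/S class. It was at 22.7, 26.1, 23.9 and 24.6 normalized CPM in controls and 26.5, 27.6, 29.6 and 28.2 in grn larvae on LSD, and at 22.8, 20.1, 22.6 and 20.4 in controls and 24.1, 23.2, 25.4 and 23.8 in grn larvae on HSD. The lowest grn library was just above the highest control library each time (0.20 ± 0.06 SE and 0.16 ± 0.06 on the log2 scale, adjusted p = 0.00837 and 0.0309, limma). On HSD the call was lost without control HSD replicate 2 or 4 or without grn HSD replicate 1, 3 or 4 (adjusted p of 0.0513 to 0.0945).

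**Figure D2:**
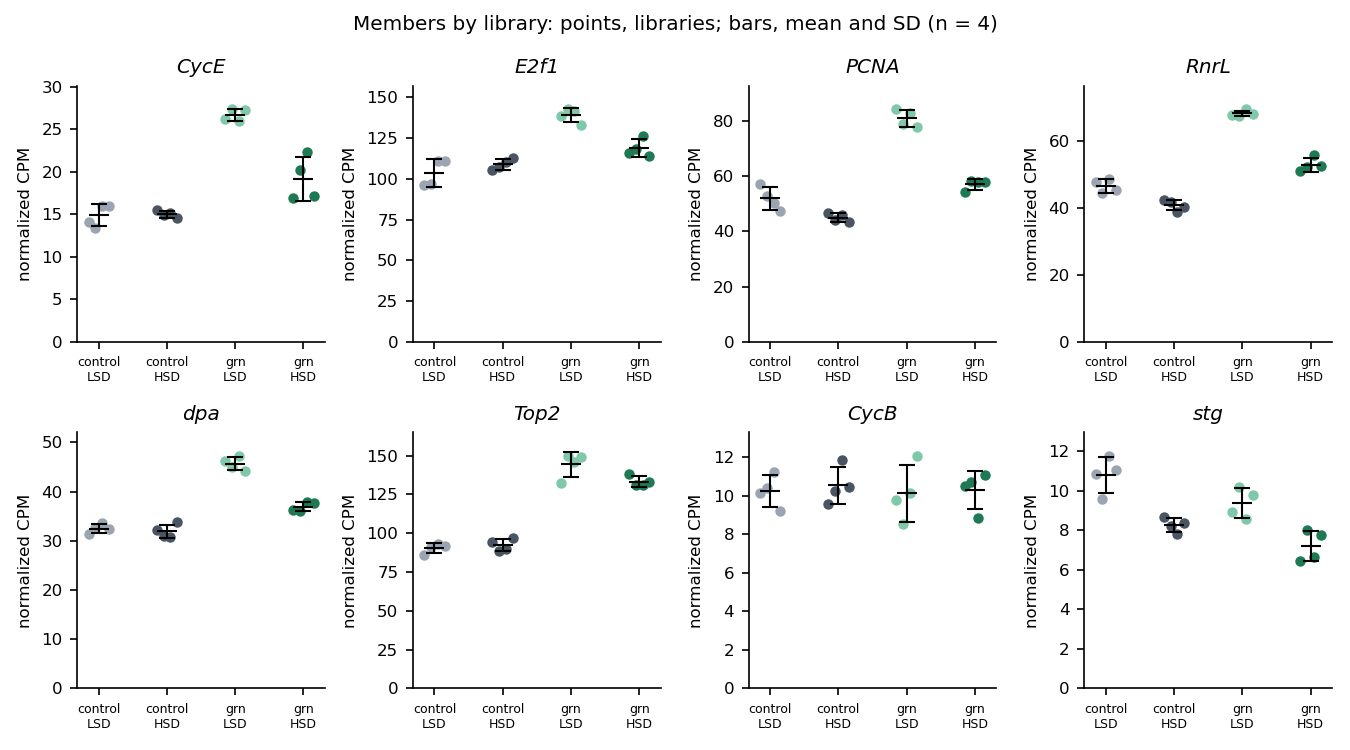
Normalized CPM of 8 of the genes in each library (points, 4 per group), with the mean and SD of each group as bars; every axis starts at 0. CycE, E2f1, PCNA, RnrL and dpa are highest in grn larvae on LSD, Top2 is high in grn larvae on both diets, CycB overlaps in all 4 groups, and stg is lower on HSD than on LSD.

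The mitotic class was led by a pair of genes. Top2, topoisomerase II, which untangles sister chromatids and also acts during replication, lies on chromosome 2L, minus strand, from 19447365 to 19453490. It was at 85.9, 90.9, 93.3 and 91.6 normalized CPM in controls and 133, 149.9, 146 and 149 in grn larvae on LSD, and at 94.1, 88.7, 90.0 and 97.0 in controls and 138, 131, 131 and 133 in grn larvae on HSD. All 8 grn libraries were above all 8 controls, with folds of 1.59 and 1.44 (log2 0.67 ± 0.05 SE and 0.53 ± 0.05, adjusted p = 2.99e-08 and 7.34e-07, limma).

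CycA, a cyclin of the entry into mitosis, was at 18.1, 20.7, 18.7 and 19.5 normalized CPM in controls and 24.8, 22.7, 25.8 and 24.6 in grn larvae on LSD. On HSD it was at 19.5, 19.2, 19.2 and 19.2 in controls and 24.9, 24.8, 21.4 and 23.7 in grn larvae. Again no grn library reached down to a control library (log2 fold changes 0.34 ± 0.06 SE and 0.29 ± 0.06, adjusted p = 0.000185 and 0.000923, limma).

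CycB, the cyclin that carries Cdk1 through mitosis, showed no such shift. It was at 10.2, 10.4, 11.2 and 9.24 normalized CPM in controls and 9.80, 8.52, 10.1 and 12.1 in grn larvae on LSD, and at 9.57, 10.3, 11.8 and 10.5 in controls and 10.5, 10.7, 8.88 and 11.1 in grn larvae on HSD. All 4 groups overlapped, and the 95% intervals of the log2 difference were -0.24 to 0.19 on LSD and -0.25 to 0.18 on HSD. Cdk1 gave 0.19 and 0.09 and CycB3 0.26 and 0.28 on LSD and HSD, called on neither diet under the authors' scaling. As plain CPM and with quantile normalization CycB3 was called on LSD (0.45 and 0.31) and on HSD (0.41 and 0.37), and Cdk1 was called on LSD (0.38 and 0.25). CycB3 was also called on HSD with edgeR and DESeq2 and without grn HSD replicate 3 (0.34, adjusted p = 0.0392, limma), and on LSD without control LSD replicate 4 (0.32, adjusted p = 0.0378).

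stg, which encodes the Cdc25 phosphatase String that activates Cdk1, lies on chromosome 3R, minus strand, from 29251826 to 29255800. It was at 10.8, 9.59, 11.8 and 11.05 normalized CPM in controls and 8.91, 10.2, 8.57 and 9.79 in grn larvae on LSD, and at 8.64, 8.19, 7.79 and 8.36 in controls and 6.44, 7.98, 6.65 and 7.73 in grn larvae on HSD. The grn values overlapped the control values on each diet, at -0.20 ± 0.08 SE and -0.19 ± 0.08 on the log2 scale, and did not pass (adjusted p = 0.0512 and 0.0770, limma). It passed on LSD without control LSD replicate 2 (-0.25, adjusted p = 0.0196) or grn LSD replicate 2 (-0.24, adjusted p = 0.0338) and with edgeR and DESeq2, and on HSD without grn HSD replicate 2 (-0.24, adjusted p = 0.0389). It was the one mitotic gene called lower on HSD than on LSD in both genotypes, as given below.

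The kinases and the genes of the spindle checkpoint and of mitotic exit were mostly not called between genotypes. Of polo, aurA, aurB, fzy (Cdc20), BubR1 and pav, a kinesin of cytokinesis, 0 of 6 were called on LSD and aurB alone on HSD under the authors' scaling. Of all genes tested, 27.1% were higher and 27.1% lower on LSD, and 17.9% and 21.2% on HSD. As plain CPM polo (0.27), BubR1 (0.30) and pav (0.24) were called higher on LSD, and BubR1 (0.32) and pav (0.26) on HSD. With quantile normalization BubR1 (0.28) and pav (0.22) were also called higher on HSD. Of all genes, plain CPM called 53.9% higher on LSD and 42.3% on HSD, and quantile normalization 39.4% on HSD. aurA, Aurora A, was the least abundant of the 39 genes. It was at 2.16, 1.46, 2.34 and 1.19 normalized CPM in controls and 1.56, 1.44, 1.83 and 1.43 in grn larvae on LSD, and at 1.74, 1.32, 1.88 and 1.75 in controls and 2.12, 2.57, 1.56 and 1.81 in grn larvae on HSD. These values rest on 27 to 66 reads per library, all groups overlapped, and the 95% intervals of the log2 difference were wide, -0.47 to 0.23 on LSD and -0.15 to 0.56 on HSD.

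Of the condensin genes, barr (a non-SMC subunit) was at 8.69, 7.51, 8.51 and 9.07 normalized CPM in controls and 9.98, 9.55, 9.64 and 9.17 in grn larvae on LSD. On HSD it was at 10.3, 10.7, 9.25 and 9.51 in controls and 10.4, 10.1, 8.88 and 11.3 in grn larvae. The LSD groups just failed to overlap (log2 0.18 ± 0.07 SE, adjusted p = 0.0572, limma) and the HSD groups overlapped (0.03 ± 0.07). On LSD it passed as plain CPM (0.37), with quantile normalization (0.25) and without control LSD replicate 4 (0.21, adjusted p = 0.0394). glu, an SMC subunit, was at 12.3, 12.5, 13.3 and 13.6 in controls and 11.9, 12.5, 11.4 and 12.3 in grn larvae on LSD, and at 16.9, 13.8, 14.4 and 13.2 in controls and 14.2, 15.0, 13.5 and 14.2 in grn larvae on HSD. Its differences were -0.10 ± 0.07 SE and -0.03 ± 0.07, and neither passed (adjusted p = 0.213 and 0.781, limma).

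Set side by side, the S-phase median stood above the mitotic median by 0.36 on LSD and by 0.17 on HSD on the log2 scale. The 95% interval of 11 of the 14 mitotic genes lay wholly below the S-phase median on LSD, that of Top2 wholly above it, and 2 held it. On HSD the numbers were 7 below, 1 above and 6 holding it. The mitotic medians, 0.06 on each diet, were near the all-gene medians of 0.03 on LSD and 0.01 on HSD. How many of all genes had an interval below the S-phase median was not counted. The mitotic genes were measured with less precision, at a median SE of 0.08 against 0.06, and were less abundant: per kilobase of exon the median level over all libraries was 2.96 normalized CPM in the mitotic, 6.47 in the G1/S and 9.34 in the S-phase class.

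By library, the class means separated the genotypes in the S-phase class and not in the mitotic class. Taking for each library the mean log2 difference of a class from its mean in control LSD larvae, the S-phase class lay between -0.02 and 0.02 in control LSD, -0.12 and 0.01 in control HSD, 0.38 and 0.43 in grn LSD and 0.14 and 0.19 in grn HSD libraries. The grn groups overlapped neither each other nor the controls. The mitotic class lay between -0.07 and 0.11, -0.06 and 0.04, 0.06 and 0.12, and -0.04 and 0.16 in the same order. Each grn group overlapped the controls of its own diet. The mitotic group means were 0.00, 0.01, 0.09 and 0.09. Without CycA and Top2 they were 0.00, 0.01, 0.02 and 0.04. These were the mitotic genes called higher in grn larvae, so leaving them out was bound to lower the grn means. The S-phase minus mitotic difference lay between -0.10 and 0.08 in control LSD and between 0.28 and 0.37 in grn LSD libraries. On HSD it lay between -0.14 and -0.01 in control and between -0.02 and 0.22 in grn libraries. The genotypes thus stood apart on LSD and overlapped on HSD, where the 0.22 came from grn HSD replicate 3. The pooled SD of this difference within groups was 0.07, and that of the grn HSD group was 0.10.

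**Figure D3:**
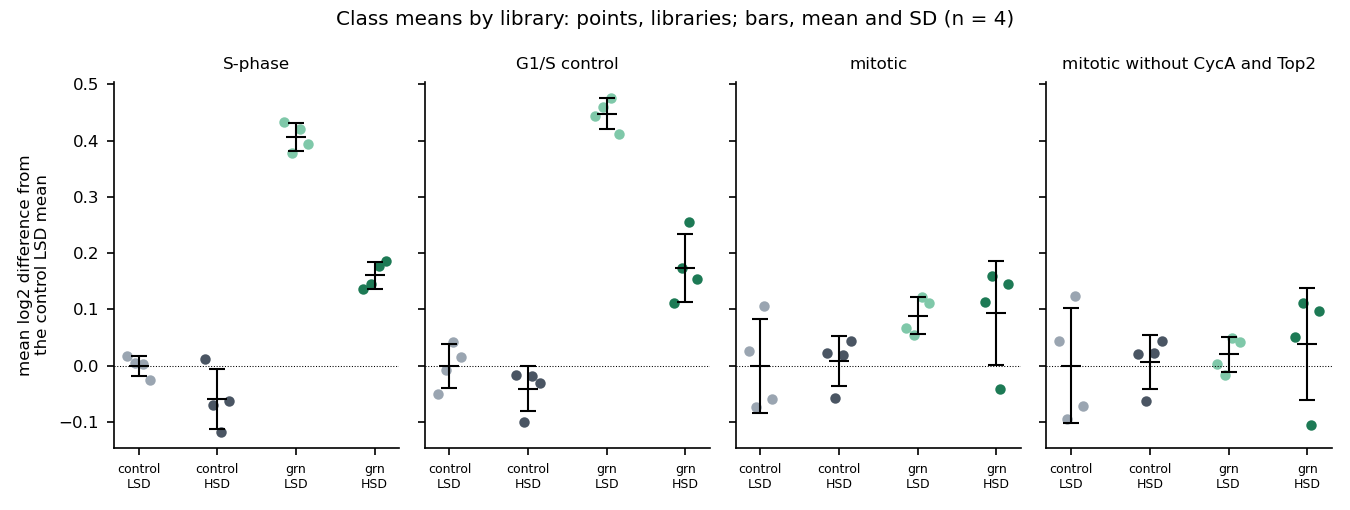
Mean log2 difference of each gene class from its control LSD mean, by library (points, 4 per group; bars, group mean and SD), on a shared axis. S-phase and G1/S means separate grn LSD, grn HSD and control libraries, and the mitotic means of grn and control libraries overlap within each diet.

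In control larvae 12 of the 39 genes changed on HSD, and in both directions. Of the S-phase genes 3 were higher on HSD (Orc2, Orc6 and Gnf1) and 5 lower (RnrL, PCNA, Cdc6, geminin and RfC4). CycD and Cdk2 were the 2 G1/S genes lower, 1 mitotic gene, barr, was higher and 1, stg, was lower. These shares stand beside 19.3% of all genes higher and 22.3% lower, and the class medians were -0.08, 0.02 and 0.00. stg fell by 0.37 ± 0.08 (SE, log2; adjusted p = 0.00210, limma), RfC4 by 0.30 ± 0.06 (adjusted p = 0.00120), PCNA by 0.20 ± 0.05 (adjusted p = 0.00652) and RnrL by 0.19 ± 0.04 (adjusted p = 0.00262), and for each of the 4 genes every HSD control library was below every LSD control library. Orc2 rose by 0.33 ± 0.09 (adjusted p = 0.0115).

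Fitted on the 8 control libraries alone, 5 of these 12 calls were made, those of Orc2, RnrL, PCNA, RfC4 and stg. Leaving out a library ended 4 calls. That of Cdk2 (-0.15) was lost without control LSD replicate 1, 2 or 3 or control HSD replicate 1, 2 or 3 (adjusted p of 0.0540 to 0.158, limma), and also under both other scalings, with edgeR and with DESeq2. That of Gnf1 (0.12) was lost without control LSD replicate 2, 3 or 4 or control HSD replicate 1, 2 or 3 (0.0514 to 0.110). CycD (-0.18) was lost without control LSD replicate 2 or control HSD replicate 2 or 4 (0.0626 to 0.0673) and barr (0.22) without control LSD replicate 2 or control HSD replicate 1 or 2 (0.0649 to 0.0870). The call of CycD was also lost under both other scalings, and that of Cdc6 (-0.24) under plain CPM (-0.19, adjusted p = 0.0595). Calls were gained for Mcm3 (-0.17) and Mcm7 (-0.19) without control HSD replicate 1 and for glu (0.21) without control HSD replicate 4. RfC3 (-0.21 to -0.23) gained a call without control LSD replicate 2 or 3 or control HSD replicate 4. Plain CPM also gave a call for glu (0.21, adjusted p = 0.0338, limma) and quantile normalization for RfC3 (-0.20, adjusted p = 0.0383).

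In grn larvae the S-phase and G1/S genes stood below their LSD level on HSD. Of the S-phase genes 15 of 20 were lower and 0 higher, and of the G1/S genes 5 of 5 were lower, where 18.3% of all genes tested were higher and 23.3% lower. The medians were -0.27 and -0.23. PCNA fell by 0.50 ± 0.05 (SE, log2; adjusted p = 3.23e-06, limma), CycE by 0.48 ± 0.08 (adjusted p = 0.000275), RnrL by 0.36 ± 0.04 (adjusted p = 7.64e-06) and dpa by 0.30 ± 0.04 (adjusted p = 2.70e-05), with no overlap between the diets. The 5 S-phase genes not called were Orc2, Orc5, Orc6, Mcm2 and Gnf1, at -0.11 to 0.10.

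The mitotic median in grn larvae was -0.01, near the -0.02 of all genes. Of the 14 mitotic genes 10 had a 95% interval wholly above the S-phase median, a count not made for all genes. glu rose by 0.24 ± 0.07 (SE, log2; adjusted p = 0.0114, limma) and stg fell by 0.36 ± 0.08 (adjusted p = 0.00226), and for both the diets did not overlap. Top2, high in grn larvae, gave -0.11 ± 0.05 and did not pass (adjusted p = 0.0564). It passed without grn LSD replicate 1 (-0.15, adjusted p = 0.0104), and BubR1 (0.26) passed without grn LSD replicate 4 or grn HSD replicate 3 (0.31 both times). Of the calls, that of Orc1 (-0.30) was lost without any single one of 7 of the 8 grn libraries, grn HSD replicate 3 excepted (adjusted p of 0.0537 to 0.0934, limma). That of dap (-0.17) was lost without grn LSD replicate 1, 2 or 3 or grn HSD replicate 1, 2 or 3 (0.0584 to 0.0985), and that of CDC45L (-0.19) without grn LSD replicate 3 or 4 or grn HSD replicate 1 or 2 (0.0549 to 0.0814). Quantile normalization ended the calls of Orc1 and CDC45L, and DESeq2 that of dap. Quantile normalization also gave a call for Orc5 (-0.13, adjusted p = 0.0383, limma). BubR1 was called with DESeq2 (0.31, adjusted p = 0.0195) and on the 8 grn libraries alone (0.26, adjusted p = 0.0429, limma).

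**Figure D4:**
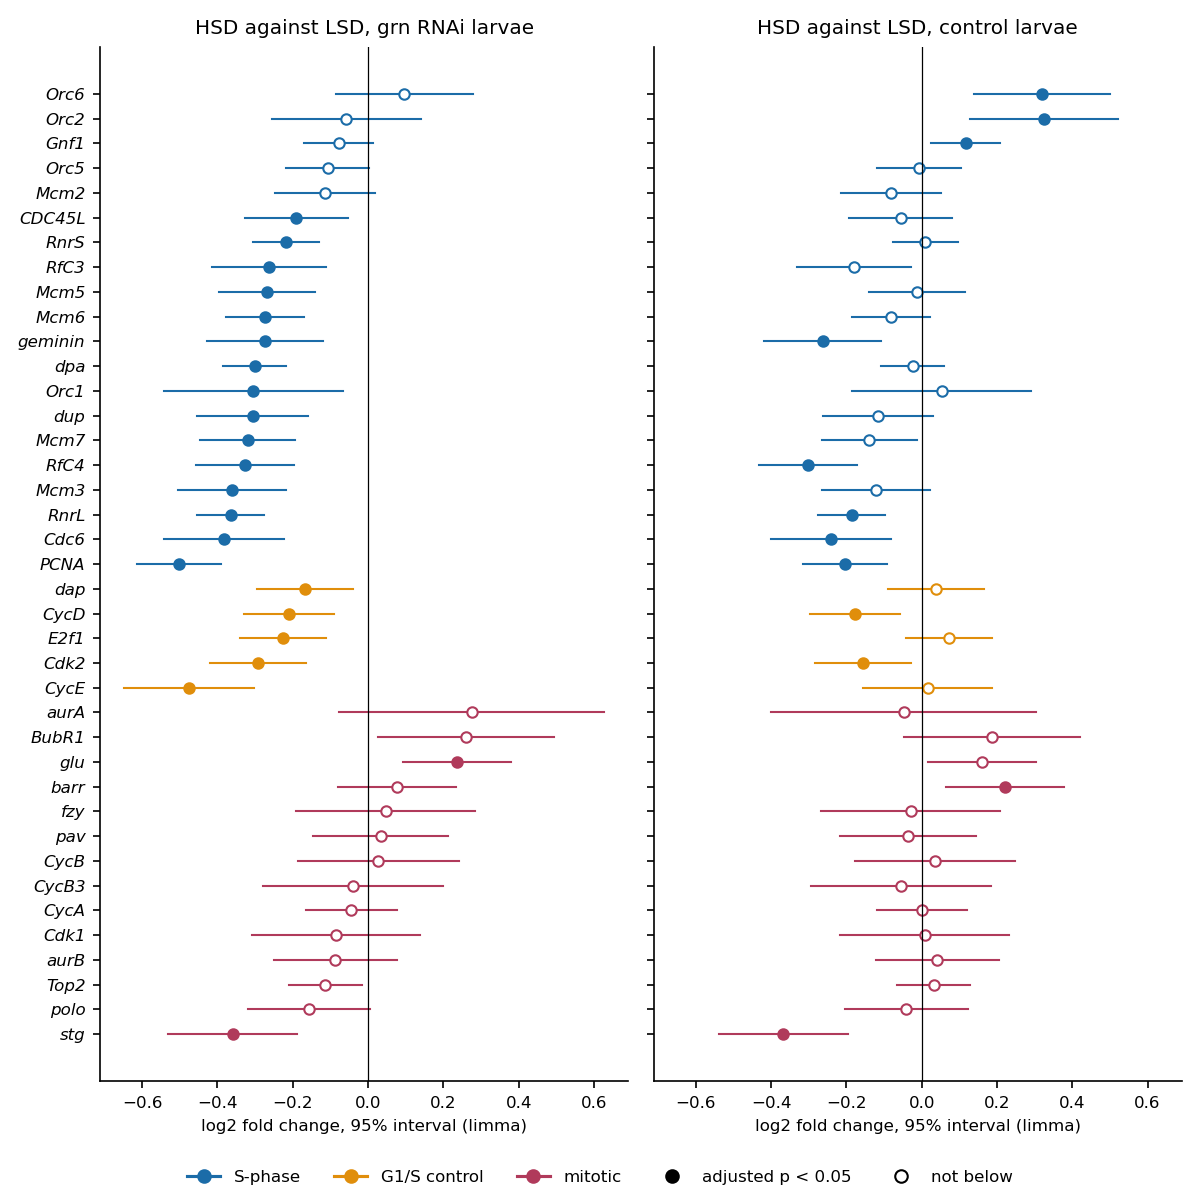
Log2 fold change of each of the 39 genes on HSD against LSD in grn RNAi larvae (left) and control larvae (right), with the 95% interval from limma; colour gives the class, filled points passed an adjusted p of 0.05. In grn larvae 15 of 20 S-phase and 5 of 5 G1/S points are filled, all below 0, and in control larvae filled points lie on both sides of 0.

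The difference between the grn effects on HSD and on LSD was tested as an interaction. Called were 3 S-phase genes (PCNA, dpa and RnrS) and 2 G1/S genes (CycE and E2f1), all with a smaller grn effect on HSD, and 0 mitotic genes (0 also with edgeR and with DESeq2), where 3.72% of all genes had a higher and 1.63% a lower effect on HSD. Of the mitotic genes 1, Top2, had an unadjusted p under 0.05, at -0.15 (95% interval -0.28 to -0.01, adjusted p = 0.210, limma). The interactions were -0.49 ± 0.11 (SE, log2; adjusted p = 0.0227, limma) for CycE, -0.30 ± 0.08 (adjusted p = 0.0340) for E2f1, -0.30 ± 0.07 (adjusted p = 0.0317) for PCNA, -0.28 ± 0.06 (adjusted p = 0.00992) for dpa and -0.23 ± 0.06 (adjusted p = 0.0357) for RnrS. The class medians were -0.19 in the S-phase, -0.20 in the G1/S and 0.00 in the mitotic class, beside -0.02 over all genes. All 20 S-phase genes and all 5 G1/S genes had a negative estimate. These signs come from the same 16 libraries and are not independent. The share of all genes with a negative estimate was not counted.

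Of these 5 calls only that of dpa was made whichever library was left out, and the count over the 39 genes ranged from 1 to 7. E2f1 and RnrS were each lost without any single one of 10 libraries (adjusted p of 0.0519 to 0.0767 and of 0.0525 to 0.0814, limma): both without grn LSD replicate 1, 2 or 3, grn HSD replicate 1, 2 or 4 or control HSD replicate 4, E2f1 also without control LSD replicate 1 or 2 or control HSD replicate 2, and RnrS also without control LSD replicate 3 or 4 or control HSD replicate 1. PCNA was lost without control LSD replicate 3, control HSD replicate 1, grn LSD replicate 1 or 3 or grn HSD replicate 1 or 4 (0.0536 to 0.0719), and CycE without grn HSD replicate 4 (0.0501). Without control HSD replicate 3 the calls numbered 7, with Orc1 (-0.46) and RnrL (-0.20) added, and without control HSD replicate 4 that of Gnf1 (-0.23) was made. Quantile normalization ended the call of RnrS (-0.20, adjusted p = 0.0624), and plain CPM added those of Gnf1 (-0.26) and RnrL (-0.24).

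Further genes of the same processes, from lists chosen with earlier results of these data known, gave the same split by count. Of 40 other replication genes, 34 were higher and 0 lower in grn larvae on LSD (median 0.33) and 23 and 0 on HSD (0.18). All genes gave 27.1% higher and 27.1% lower on LSD, and 17.9% and 21.2% on HSD. Within grn larvae 19 of the 40 were lower on HSD than on LSD and 0 higher, beside 23.3% and 18.3% of all genes. dnk, a deoxynucleoside kinase that salvages precursors, gave log2 fold changes of 0.79 on LSD and 0.44 on HSD (adjusted p = 2.21e-08 and 1.32e-05, limma), RPA2, a subunit of the protein that coats single-stranded DNA, 0.58 and 0.43, and Ts, thymidylate synthase, 0.49 and 0.49.

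Of 59 other mitosis genes, 16 were higher and 1 lower in grn larvae on LSD (median 0.10) and 11 and 1 on HSD (0.07). The higher shares were close to the 27.1% and 17.9% of all genes. The lower shares were far below the 27.1% and 21.2% of all genes. Estimates were positive for 43 of the 59 on LSD and 40 on HSD, and the medians over all genes were 0.03 and 0.01. Of the 59, Bub3 (0.30 on LSD and 0.27 on HSD), Mad1 (0.26 and 0.16) and tacc (0.14 and 0.10) had the lowest adjusted p. All were called on both diets. Bub3 and Mad1 are checkpoint genes and tacc encodes a centrosomal protein. Of 25 other genes of G1/S control and the endocycle, 16 were higher and 2 lower on LSD, and 7 and 1 on HSD. The largest of the named ones was rap, which encodes Fizzy-related, an activator of the anaphase-promoting complex that fly cells need to leave mitotic cycles for endocycles, with 0.59 on LSD and 0.62 on HSD (adjusted p = 5.12e-06 and 5.93e-06, limma). Rbf, the repressor of E2f1, gave 0.36 on LSD, called, and 0.04 on HSD, not called, and Skp2, a substrate receptor of ubiquitin ligases, 0.31 and 0.02.

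Of 22 genes of DNA damage and checkpoint, 10 were higher and 0 lower in grn larvae on LSD (all genes 27.1% and 27.1%), and 8 and 0 on HSD (17.9% and 21.2%). Of the same genes 8 were also higher and 0 lower on HSD in control larvae (median 0.19; all genes 19.3% and 22.3%), and 7 higher and 1 lower on HSD in grn larvae (18.3% and 23.3%). The lower one was grp, the fly Chk1 kinase, which gave 0.66 on LSD and 0.31 on HSD between genotypes and fell by 0.36 on HSD in grn larvae (adjusted p = 2.47e-08, 7.25e-05 and 1.52e-05, limma). mus81 (0.44 and 0.38), a nuclease of stalled forks, and rad50 (0.33 and 0.46), of double-strand break repair, were called on both diets.

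**Figure D5:**
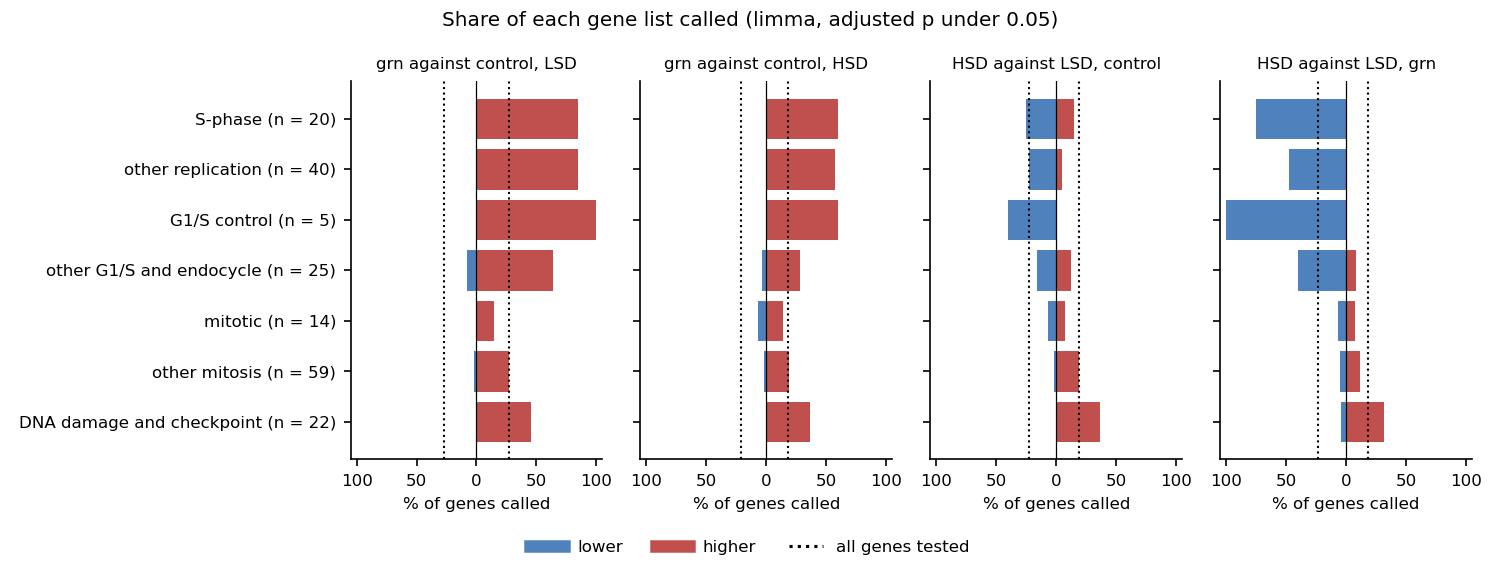
Share of each gene list called higher (right of 0) or lower (left of 0) in 4 comparisons, in percent of its genes; dotted lines give the shares of all genes tested. S-phase and other replication genes pass far beyond the dotted line for higher on both diets in grn against control, and the mitotic and other mitosis bars stay near or within it.

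Some markers of the tissues in a whole larva were also called between genotypes, where 27.1% of all genes were higher and 27.1% lower on LSD and 17.9% and 21.2% on HSD. Their part in the results above was not tested. On LSD 10 of 11 midgut markers were lower and 0 higher in grn larvae (median -0.89), with a summed level of 7036 to 7787 normalized CPM in control and 2967 to 3209.7 in grn libraries, and on HSD 8 of 11 were lower, with sums of 7259 to 8090.2 and 4222 to 4532. Of 10 muscle markers 8 were lower on LSD (sums 52240.2 to 56396 and 45329 to 49909) and 0 on HSD. Higher on LSD were 7 of 10 neuron markers (sums 301 to 371 and 324 to 402), 6 of 11 imaginal disc markers (221 to 259 and 249 to 281), 3 of 8 neuroblast markers (31.9 to 35.2 and 37.2 to 42.2), 2 of 8 germline markers (29.1 to 38.1 and 52.5 to 57.9, summed over 9) and 2 of 4 midgut progenitor markers (88.4 to 100.52 and 121 to 126), with 0 lower in each. On HSD 3, 2, 1, 1 and 1 of these were higher, and 2 imaginal disc markers and 1 midgut progenitor marker lower. Of 8 hemocyte markers 1 was higher and 4 lower on LSD, and of 6 fat body markers 0 and 2.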

How the data were processed

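The values used were normalized CPM per gene and library, a signal that the authors made and deposited: reads trimmed with Trimmomatic, aligned with TopHat2 2.1.0 to FlyBase release 6, counted per gene and strand with HTSeq (2.7.6 in the submitters' processing notes), filtered on low values and scaled. The deposited signal divided in every library into whole reads by 1 constant (100% of values within 0.01 read), which recovered the read count. Columns of the authors' own comparisons (fold changes, t and F statistics, p-values) were not used. The depth, 24038848 to 32644817 reads per library, put 27 to 4782 reads behind each of the 39 genes.

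A gene entered the fit when, in some group, no fewer than 3 of 4 libraries exceeded 1 normalized CPM, which left 9950 of 9982. The log2(normalized CPM + 0.5) values of all 16 libraries were fitted with limma 3.58.1 (R 4.3.3; a mean for each group, moderated variances with trend, two-sided tests), with Benjamini-Hochberg adjustment across the 9950 genes and calls at 0.05. Fold changes are on this log2(value + 0.5) scale, which understates the change of low genes, and intervals are at 95%. Alternatives were a pseudocount of 0.1 or of 1, the low-value filter dropped or raised to 5, quantile normalization, CPM of the recovered reads, a fit to only the compared libraries, a replicate block, leaving out single libraries, and edgeR 4.0.16 and DESeq2 1.42.0 on recovered reads.

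The genes, classes and lists were chosen with earlier results of these data known, so list counts and medians are descriptions set beside those of all genes. Values in every library are given for 16 genes: up to 2 per class and comparison with the lowest adjusted p, and CycE, E2f1, PCNA, CycB, stg and dap for their roles. From each further list up to 3 genes with the lowest adjusted p were named. Other members were named to account for the whole list. Coordinates are from the Ensembl annotation of the release 6 assembly, where 36 of the 39 identifiers matched and 3 (Orc1, Mcm3 and Top2) were matched by symbol.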

Additional observations from a re-analysis of the deposited data

Results flagged for a closer look

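In 8 of 156 sets of 4 libraries (a gene in a group), 1 library stood far from the other 3, where chance would mark about 1 in 20 sets. The normalized CPM of Cdc6 was lowest in control LSD replicate 3 (7.96, the others 8.41 to 8.44) and in grn LSD replicate 4 (10.9, the others 12.2). Mcm6 was lowest in control HSD replicate 2 (22.4) and highest in grn LSD replicate 3 (36.7). CDC45L was lowest in control HSD replicate 3 (18.7), PCNA in grn HSD replicate 1 (54.1) and polo in control LSD replicate 2 (14.4), and CycA was highest in control HSD replicate 1 (19.5).

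The effect of grn RNAi differed between the diets for 5 genes by the interaction test of limma at an adjusted p under 0.05. The log2 effect on HSD minus that on LSD was -0.49 for CycE, -0.30 for E2f1, -0.30 for PCNA, -0.28 for dpa and -0.23 for RnrS.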

How the results depend on the processing

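The log2 differences between the S-phase and mitotic medians kept their direction in all 5 comparisons under every alternative run. With each library left out they ranged from 0.33 to 0.40 for grn against control on LSD, from 0.11 to 0.21 on HSD, from -0.12 to -0.05 for the diet in control larvae, from -0.33 to -0.26 for the diet in grn larvae and from -0.25 to -0.15 for the interaction. The number of the 39 genes called was 24, 18, 12, 22 and 5 in that order, and with each library left out 24 to 26, 16 to 19, 8 to 13, 19 to 22 and 1 to 7. It moved by over 1.5 times under 2 other alternatives. With CPM of the recovered reads it was 28 for grn against control on HSD. With the 8 control libraries alone it was 5 for the diet in control larvae. The diet in grn larvae, fitted on its 8 libraries alone, kept its 22 calls and gained 1. The reason for the drop in control larvae was not tested. No called gene changed sign under any alternative. Whether the replicate numbers of the labels pair the samples is not settled by r of same-numbered deviations, which ranged from -0.512 to 0.798. With the replicate number as a block 24, 20, 10, 21 and 5 genes were called. The interaction calls other than that of dpa depend on single libraries, and a gene such as aurA, with 27 to 66 reads per library, is limited by depth.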
